A study of Sus scrofa with 80 samples.

Results

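The spleen and the bone marrow of the Göttingen minipig, a small pig breed used in preclinical research, were compared over the first 4 months after birth. All 8 spleen samples and all 8 bone marrow samples labelled 1 week, 4 weeks, 2 months or 4 months were used, 16 of the 80 samples of the series. Tissue and age define 8 groups, each made up of 1 male and 1 female (n = 2). The labels give no treatment and no genetic change for any of these pigs, which came from 1 breeder, and each sample is total RNA of a crushed piece of whole frozen tissue that was neither sorted nor dissociated. How the marrow was taken out of the bone is not given in the sources used here. The RNA was labelled with 1 dye and hybridized to a microarray designed for the minipig, on which 61289 of 62976 spots are gene probes. Every value below is a log2 intensity averaged over the probes of a gene, and every difference is spleen minus marrow, so that a difference of 1 is a 2-fold difference in intensity. Calls are at an adjusted p-value under 0.05 from limma with Benjamini-Hochberg adjustment over 23726 genes. The labels do not name animals and the male and female are the only repeats, so the p-values measure the spread between these samples, sex included.

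Both organs hold blood cells within a stroma of their own. Bone marrow is the main site of blood formation after birth, where red cells, granulocytes, platelets and B cell precursors arise among bone-forming, bone-resorbing and fat-storing cells. The spleen filters blood: macrophages of its red pulp remove old red cells and recycle their iron, while T and B cells gather in its white pulp around stromal cells that attract them with chemokines, and a capsule with muscular strands encloses it. In fetal and newborn mammals of several species the spleen also makes red cells, a task that is later left to the marrow.

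The tissue labels were first checked against marker genes. Of 13 spleen markers, 10 were higher in spleen over the mean of the 4 ages, where 24.1% of all genes were higher and 20.0% were lower. STAB2 and FCER2 were not well above background on any of the 16 arrays, and CD5L, a secreted macrophage protein, was bright in both tissues with a difference of -0.06 (adjusted p = 0.90, limma). Of 16 marrow markers, 14 were measured and 12 of these were higher in marrow, the exceptions being RAG2, which was not well above background on any array, and CXCL12, with a difference of 0.11 (adjusted p = 0.36, limma). RAG1, among the 12, was well above background on 1 marrow array and on no spleen array. The share of genes well above background was between 59.9% and 65.8% in the marrow arrays and between 62.5% and 66.1% in the spleen arrays. The male and the female of a group correlated at 0.976 to 0.992 over all genes, which are not independent replicates.

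The 2 marrow arrays at 1 week stand apart because they hold transcripts of skeletal muscle. CKM, the creatine kinase of muscle, read 15.3 in the female and 15.0 in the male marrow at 1 week, 3.37 and 6.03 at 4 weeks, 6.47 and 4.69 at 2 months, and 7.44 and 11.3 at 4 months. It was between 2.41 and 3.42 in spleen and not well above background on any spleen array. Of 21 measured muscle genes (23 listed), 18 were lower in spleen at 1 week, with a median difference of -6.12 (all genes, 0.09; 6.80% of all genes were lower at that age), 1 was lower at 4 weeks, 0 at 2 months and 8 at 4 months (median -0.86), when MYH1, a myosin of fast muscle fibres, read 7.10 in the female and 9.40 in the male marrow. The intensities of the 21 genes summed to 124200 in the female and 100600 in the male at 1 week, against 632.8 to 1072 in 5 of the other marrow samples, 6744 in the marrow of the 4-month male and 513.3 to 712.9 in spleen. Both samples also had the highest summed cartilage intensities, 4848 in the female and 6501 in the male, against 625.3 to 2457 in the other marrow and 994.3 to 2378 in spleen. For the changes from 1 week the text therefore also gives, for the main genes and lists, the change of the tissue difference from 4 weeks to 4 months.

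**Figure D1:**
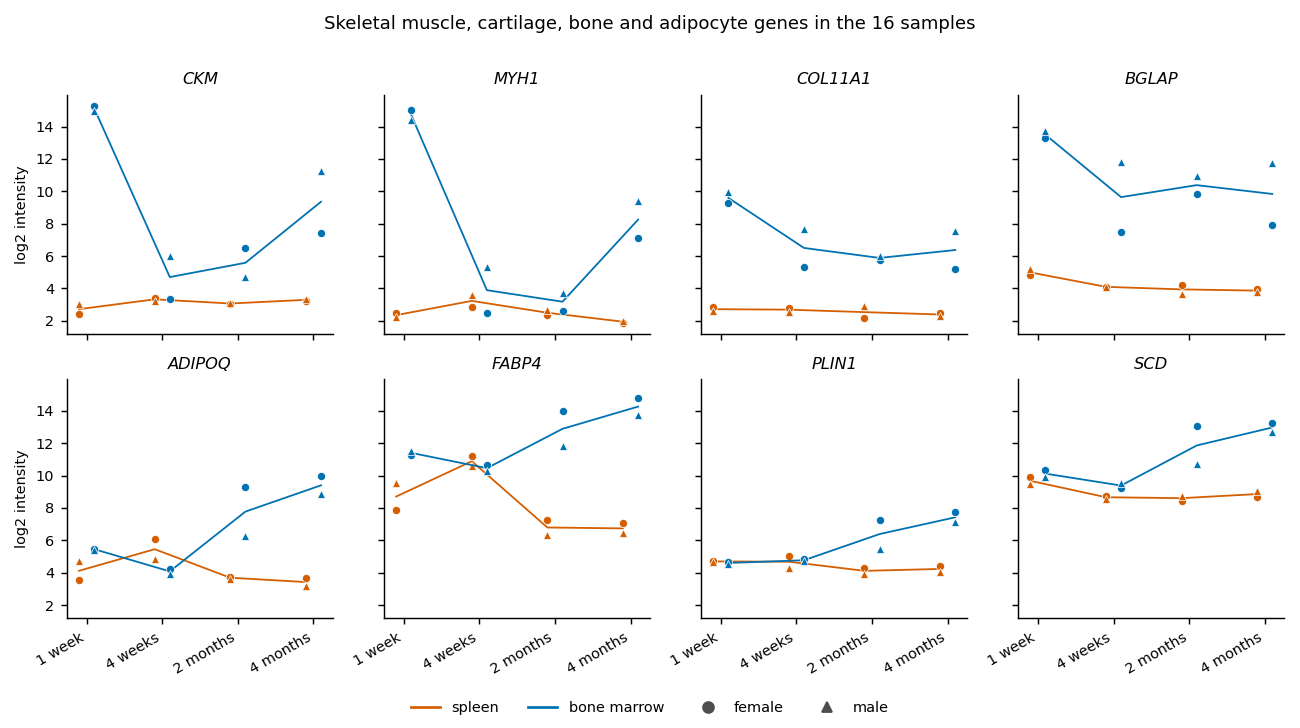
Log2 intensity (y axis) of 8 genes of skeletal muscle, cartilage, bone and fat at the 4 ages (x axis) in spleen (orange) and bone marrow (blue); circles are females, triangles are males and lines join the group means. CKM and MYH1 are above 14 in both 1-week marrow samples and at 11.3 and 9.40 in the marrow of the 4-month male, while ADIPOQ and FABP4 are highest in the marrow at 4 months.

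Averaged over the 4 ages, 10478 genes differed between the tissues, 5726 higher and 4752 lower in spleen, 24.1% and 20.0% of all genes. Every count of list members over the mean of the ages is to be read beside these 2 shares. The greatest differences included the spleen patterning factor TLX1 on one side and antimicrobial granule proteins and the bone enzyme MMP13 on the other. For 785 genes (3.31%) every one of the 8 spleen samples was above every marrow sample, and for 457 (1.93%) every spleen sample was below. Leaving out the 1-week samples of both tissues gave 10678 genes over the mean of the other 3 ages. In bulk tissue, fewer cells of a type and less RNA per cell cannot be told apart, here and in every difference that follows.

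**Figure D2:**
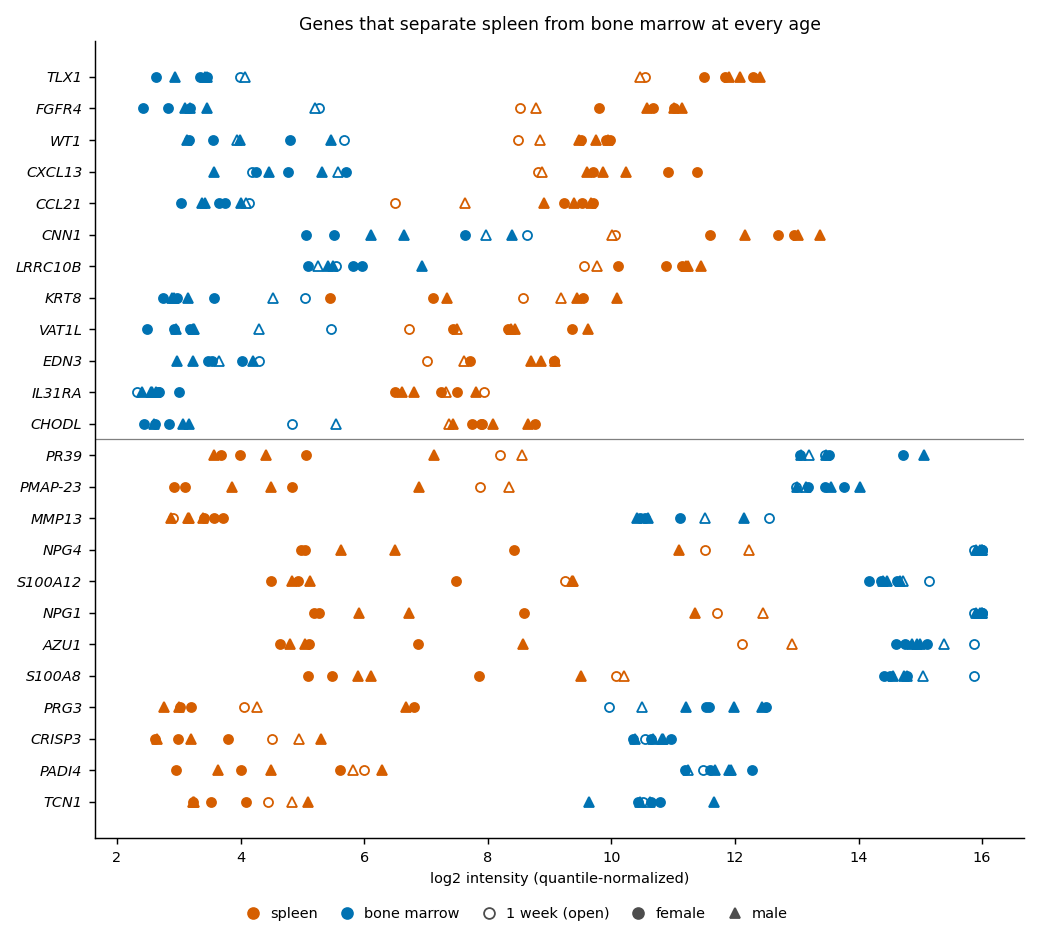
Log2 intensity (x axis) in each of the 8 spleen (orange) and 8 bone marrow samples (blue) of the 12 genes most higher in spleen (above the line) and the 12 most lower (below it) among those whose tissues do not overlap; circles are females, triangles are males and open symbols are 1-week samples. TLX1 lies at 10.5 or above in spleen and at 4.07 or below in marrow, and for PR39, PMAP-23, AZU1 and S100A8 the 1-week spleen samples are the spleen samples nearest to the marrow.

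Several genes that shape the spleen during development were higher in spleen. TLX1, a homeobox factor without which no spleen forms in the mouse, had a lowest, median and highest value of 10.5, 11.9 and 12.4 in spleen and 2.64, 3.44 and 4.07 in marrow (n = 8 each). It was not well above background on any marrow array, so its difference is a bound, at least 274-fold (log2 8.21, standard error 0.13, adjusted p = 3.0e-12, limma). Such bounds set the bright tissue against the dimmest signal that counts as well above background. WT1, a zinc-finger factor of the lining of the abdominal organs, was between 8.49 and 9.97 in spleen, with a median of 9.63, and between 3.13 and 5.68 in marrow, with a median of 3.96, a 38.7-fold difference (adjusted p = 7.6e-09, limma). The tissues did not overlap for either gene. Of 18 measured patterning factors (21 listed), 9 were higher and 1 was lower in spleen, with a median difference of 0.32 against 0.01 for all genes, and 11 of the 18 were well above background on any array. Besides TLX1 and WT1 the 9 were HAND2 (at least 12.9-fold), NKX2-5 (7.52-fold), NKX3-2 (7.11-fold), NR2F2, HOXB3, GATA6 and NKX2-3, and for all of these but NKX2-3 the tissues did not overlap. Tested by age, between 7 and 8 of the 18 were higher in spleen at each of the 4 ages. Of all genes 5.77%, 17.8%, 15.0% and 14.1% were higher at 1 week, 4 weeks, 2 months and 4 months. Over the mean of the ages 24.1% of all genes were higher, and 3.31% were higher without overlap.

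FGFR4, a receptor for fibroblast growth factors, had the second greatest difference on the spleen side, 97.5-fold, and chemokines of the white pulp were also among the 12 greatest. CXCL13, which draws B cells into follicles, was between 8.81 and 11.4 in spleen (median 9.78) and between 3.56 and 5.70 in marrow (median 4.61), 36.7-fold higher in spleen (adjusted p = 9.8e-09, limma). CCL21, which draws T cells, was between 6.51 and 9.70 in spleen (median 9.32) and between 3.04 and 4.14 in marrow (median 3.70), where no array was well above background, a difference of at least 33.5-fold (adjusted p = 4.7e-10, limma). No spleen sample came near a marrow sample in either gene, and the lowest spleen values of both were those at 1 week. Of 21 measured genes of lymphoid stroma (25 listed), 10 were higher and 2 lower in spleen (median 0.33). The 10 included LTB, which maintains lymphoid stroma (6.35-fold), the adhesion molecules ICAM1 (6.04-fold) and MADCAM1 (4.93-fold), and CCL19 (log2 1.44); the 2 lower were VCAM1, an adhesion molecule (log2 -1.78), and PRNP (log2 -0.41).

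More genes of the red pulp macrophage were higher than lower in spleen. SPIC, the transcription factor that red pulp macrophages depend on, was between 7.47 and 9.93 in spleen (median 8.94) and between 3.70 and 5.47 in marrow (median 4.71), 16.2-fold higher in spleen (adjusted p = 7.4e-10, limma). ITGAD, an integrin subunit of these cells, was 9.86-fold higher and the complement gene C1QA was 7.23-fold higher. HMOX1, which breaks down heme, was 3.65-fold higher, and SLC40A1, the exporter that releases iron, was higher by 0.70 on the log2 scale. The opposite extreme was HP, haptoglobin, which binds free hemoglobin in plasma: it was between 8.06 and 9.54 in marrow (median 8.86) and between 2.64 and 4.00 in spleen (median 3.28), where no array was well above background, at least 44.3-fold lower in spleen (adjusted p = 2.5e-10, limma). Of the 34 measured genes of this list (35 listed), 15 were higher and 7 lower in spleen, with a median of 0.25. For all genes the shares were 24.1% higher and 20.0% lower, so the lower share of the list was near that of all genes. The 7 lower were HP, VSIG4 (log2 -1.79), VCAM1, BLVRB, MRC1, TREM2 and BLVRA. The probes of HP carry the array design's mark for cross-hybridization.

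Smooth muscle genes were higher in spleen, which has a contractile capsule. ACTA2, smooth muscle actin, was between 13.5 and 15.1 in spleen (median 14.1) and between 9.24 and 11.7 in marrow (median 10.1), 14.4-fold higher in spleen (adjusted p = 3.2e-07, limma). CNN1, calponin, was between 10 and 13.4 in spleen and between 5.05 and 8.63 in marrow, 31.8-fold higher. Neither gene overlapped between the tissues, and among the marrow samples the 4-month male, in which muscle transcripts were also higher than in the samples of 4 weeks and 2 months, was highest for ACTA2. Of 21 measured genes (24 listed), 19 were higher and 2 lower in spleen, with a median difference of 2.01; the 2 lower, LDB3 (log2 -0.56) and TPM1 (log2 -0.47), also belong to striated muscle. Without the 1-week samples 19 were higher and 0 were lower.

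On the marrow side the greatest differences were those of antimicrobial proteins stored in neutrophil granules. PR39, a cathelicidin peptide of the pig, was between 13.1 and 15.1 in marrow (median 13.5) and between 3.57 and 8.55 in spleen (median 4.73), 278-fold lower in spleen (adjusted p = 4.8e-10, limma). PMAP-23, another cathelicidin, was 275-fold lower, and the protegrins NPG4 and NPG1, whose marrow signal was saturated, were at least 222-fold and 190-fold lower. These peptides are encoded by near-identical genes, so their signals may be shared between them. S100A8 and S100A12, calcium-binding proteins of neutrophils, were 158-fold and 210-fold lower, and PADI4, which modifies arginines in proteins, was 112-fold lower. ELANE, neutrophil elastase, was 12.7-fold lower and MPO, myeloperoxidase, 8.61-fold lower in spleen. Of 31 measured granule genes (44 listed), 23 were lower and 4 higher in spleen (20.0% and 24.1% of all genes), with a median of -2.43. For 18 all spleen samples were below all marrow samples (1.93% of all genes). The 4 higher were the surface receptors FPR1 (5.42-fold) and CXCR2, and PRAM1 and NCF4. Within each of the 7 slides that hold both tissues the median of the list was between -2.88 and -1.79. Most of these slides pair samples of different ages.

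Eosinophil and platelet genes were also lower in spleen. PRG3, a basic protein of eosinophil granules, was between 9.96 and 12.5 in marrow (median 11.6) and between 2.76 and 6.80 in spleen (median 3.62), 151-fold lower in spleen (adjusted p = 3.0e-12, limma). In spleen it was highest at 4 weeks, with 6.80 in the female and 6.68 in the male, and at most 4.27 at the other ages. Of 14 measured mast cell, basophil and eosinophil genes (21 listed), 10 were lower and 1, HPGDS, was higher in spleen. Of 28 measured megakaryocyte and platelet genes (30 listed), 22 were lower and 4 higher, with a median of -1.33. For both lists the shares of all genes were 20.0% lower and 24.1% higher.

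Genes of bone-forming and bone-resorbing cells were lower in spleen. MMP13, a collagenase of bone and cartilage, was between 10.4 and 12.5 in marrow (median 10.9) and between 2.88 and 3.72 in spleen (median 3.28), 238-fold lower in spleen (adjusted p = 4.7e-10, limma). The 95th percentile of the negative control spots was between 3.31 and 3.94 on the spleen arrays, so this size rests on spleen values near background. BGLAP, osteocalcin, read 13.3 in the female and 13.7 in the male marrow at 1 week, 7.49 and 11.8 at 4 weeks, 9.85 and 10.9 at 2 months, and 7.93 and 11.7 at 4 months, and between 3.65 and 5.17 in spleen. The male was above the female in marrow at every age, and the difference was 98.2-fold (adjusted p = 2.8e-06, limma). BGLAP was well above background on 4 of the 8 spleen arrays, so the size of its difference is uncertain. Of 27 measured osteoblast and bone matrix genes (30 listed), 21 were lower in spleen and 0 higher, with a median of -2.20. Of 17 measured osteoclast genes (20 listed), 9 were lower and 3 higher. For both lists the shares of all genes were 20.0% lower and 24.1% higher. ATP6V0D2, a subunit of the proton pump with which osteoclasts dissolve bone, was at least 22.9-fold lower in spleen.

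T cell genes were higher in spleen at each age although their level was higher at 4 months than at 1 week in both tissues. CD3E, a chain of the T cell receptor complex, read 7.67 in the female and 8.19 in the male spleen at 1 week, 10.7 and 10.5 at 4 weeks, 10.4 and 10.9 at 2 months, and 10.8 and 11.0 at 4 months. In marrow it read 5.21 and 5.89, 7.27 and 5.94, 8.63 and 9.42, and 9.63 and 8.97 at the same ages. Spleen was above marrow at each age, but the marrow at 2 and 4 months was above the spleen at 1 week. From 1 week to 4 months CD3E rose 7.75-fold in spleen (adjusted p = 0.00026, limma) and 13.4-fold in marrow (adjusted p = 0.00020), and its tissue difference went from 2.38 to 1.59, a change of -0.79 (standard error 0.60, adjusted p = 0.43). Of 38 measured T cell genes (42 listed), 27 were higher and 1 was lower in spleen over the mean of the ages, with a median of 1.41; the 1 lower was IL2RA, which was well above background on 1 spleen and 2 marrow arrays. From 1 week to 4 months 26 rose in spleen, where 16.1% of all genes rose and 13.2% fell, and 23 rose in marrow, where 5.26% rose and 5.17% fell. In spleen 23 rose between 1 and 4 weeks (15.2% of all genes), and in marrow 13 rose between 4 weeks and 2 months, where 0.354% of all genes rose. The tissue difference of 5 of the 38 T cell genes changed from 1 week to 4 months, a share below the 14.8% of all genes, upward for CXCR3 and downward for ZAP70, PDCD1, GATA3 and CD3G, with adjusted p-values between 0.017 and 0.045 (limma). The calls of GATA3, ZAP70 and PDCD1 were lost in 14, 12 and 8 of the alternative settings.

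Genes of natural killer and cytotoxic cells had the same direction. Of 25 measured (29 listed), 17 were higher and 2, IL18RAP and HOPX, were lower in spleen, with a median of 0.75, led by the receptor CD244 (log2 2.75). GZMK, a protease of cytotoxic granules, read 3.94 in the female and 3.90 in the male spleen at 1 week and 7.38 and 7.16 at 4 months, against 3.88 and 3.53 and then 6.42 and 5.23 in marrow. It was not well above background in either tissue at 1 week, and all 4 values at 4 months were above all 4 at 1 week. From 1 week to 4 months 20 of the 25 rose in spleen (16.1% of all genes) and 12 in marrow (5.26%).

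Genes of MHC class II presentation, through which B cells, macrophages and dendritic cells show peptides to T cells, were higher in spleen for 16 of 17 measured members (24 listed), with a median of 1.58. CD74, the invariant chain, read 9.35 in the female and 9.53 in the male spleen at 1 week, 11.8 and 11.7 at 4 weeks, 11.8 and 11.8 at 2 months, and 11.7 and 11.8 at 4 months. In marrow it read 7.71 and 8.06, 9.11 and 8.63, 9.77 and 9.42, and 9.54 and 8.93. The spleen step lay between 1 and 4 weeks, where 16 of the 17 genes rose (15.2% of all genes). The tissue difference of 8 genes became greater from 1 week to 4 months, as it did for 7.46% of all genes, and that of 0 became smaller; CTSH, a lysosomal protease, went from a difference of 0.08 to one 1.72 greater (adjusted p = 0.0033, limma), while CD74 changed by 0.94 (adjusted p = 0.075). From 4 weeks to 4 months the difference of CTSH changed by -0.51 (adjusted p = 0.47). All probes of 9 of the 17 genes carry the array design's mark for cross-hybridization, and some of these genes are near-identical to each other.

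Several genes of the early B cell list became higher in spleen relative to marrow, while others did not change past the threshold. VPREB3, a partner of the immature B cell receptor, read 9.06 in the female and 9.14 in the male spleen at 1 week, 10.7 and 10.4 at 4 weeks, 11.3 and 11.2 at 2 months, and 11.2 and 11.4 at 4 months. In marrow it read 10.5 and 10.7, 11.7 and 11.4, 10.4 and 9.95, and 8.20 and 6.62. Marrow was thus above spleen at 1 and 4 weeks and below it at 2 and 4 months. The tissue difference went from -1.51 at 1 week (adjusted p = 0.022, limma) to 3.88 at 4 months (adjusted p = 1.6e-05), a change of 5.38 (standard error 0.53, adjusted p = 6.9e-05), with a rise of 2.19 in spleen and a fall of 3.20 in marrow on the log2 scale. From 4 weeks to 4 months its difference changed by 4.89 (adjusted p = 0.0014) and that of CD79B by 2.90 (adjusted p = 0.025). CD79B, a signalling chain of the B cell receptor, went from a difference of -0.07 at 1 week to 3.50 at 4 months (change adjusted p = 0.00068, limma), and CD79A from 0.31 to 3.03 (change adjusted p = 0.0049). VPREB1, which acts in the pre-B cell receptor, read between 8.19 and 8.84 in spleen and between 8.63 and 9.19 in marrow, and its change of -0.60 did not pass (adjusted p = 0.14). The marrow markers RAG1, RAG2 and DNTT changed by 0.37, 0.31 and 0.91, which did not pass (adjusted p = 0.59, 0.74 and 0.42, limma). RAG2 was not well above background on any array, and RAG1 was so on 1 marrow array only. The difference of DNTT at 4 months was -0.02. Of 24 measured genes of early B cells and receptor gene recombination (28 listed), the difference rose for 6 and fell for 1, TERF2. For all genes the shares were 7.46% and 7.33%.

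Mature B cell genes were less divided between the tissues at 1 week than later. Of 28 measured (36 listed), 5 were higher and 1 lower in spleen at 1 week, where 5.77% of all genes were higher, and 18 were higher and 0 lower at 4 months, where 14.1% of all genes were higher and 10.6% lower. The median difference was 0.22 at 1 week and 1.06 at 4 months. The difference rose for 8 genes and fell for 1, MS4A1 (log2 -1.03), against 7.46% and 7.33% of all genes. Among the 8 were CD40, through which T cells help B cells (1.62), S1PR2, a receptor that holds B cells in the germinal centre (2.03), and FCRL4 (2.38). From 4 weeks to 4 months the changes of S1PR2 and FCRL4 were 0.13 (adjusted p = 0.86, limma) and 1.46 (adjusted p = 0.25).

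Among plasma cell genes the joining chain stood apart. IGJ, which links antibody molecules into polymers, read 9.42 in the female and 8.63 in the male spleen at 1 week, 12.9 and 13.3 at 4 weeks, 13.3 and 13.7 at 2 months, and 13.6 and 13.8 at 4 months. In marrow it read 5.64 and 5.51, 9.00 and 8.53, 11.0 and 11.1, and 12.5 and 12.5. Both tissues were higher at each later age than at the one before, and the difference between them was 10.9-fold at 1 week and 20.2-fold at 4 weeks, then 5.50-fold and 2.26-fold at the later ages. IGJ rose 25.5-fold in spleen and 123-fold in marrow, and its difference fell by 2.27 on the log2 scale (adjusted p = 0.0015, limma). Of 22 measured plasma cell genes (25 listed), the difference rose for 9 and fell for 3, IGJ, ELL2 and SDC1, against 7.46% and 7.33% of all genes. The 9 included XBP1, SSR4 and DNAJB9, which serve protein secretion in other cells too and were lower in spleen at 1 week.

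The tissue contrast itself changed mainly between 1 and 4 weeks. Spleen and marrow differed in 2983 genes at 1 week and in 7971 at 4 weeks. The counts for 2 months and 4 months were 6557 and 5865. The difference at 4 months was another than at 1 week for 3510 genes, with 1771 changes upward in spleen relative to marrow and 1739 downward. By step, it changed for 6555 genes between 1 and 4 weeks, for 130 between 4 weeks and 2 months and for 4 between 2 and 4 months (9169, 3571 and 1776 at an unadjusted p under 0.05, limma), and for 234 between 4 weeks and 4 months, 40 upward and 194 downward. Of 79 changes from 1 week in named genes, 22 passed with the same sign when counted from 4 weeks, and 25 had the other sign there, 0 of them past the threshold. Within spleen 6733 genes differed between 1 and 4 weeks, 1170 between 4 weeks and 2 months and 9 between 2 and 4 months; within marrow the counts were 1358, 124 and 23. The counts rest on 2 samples a group: without the male or the female marrow at 1 week the 3510 became 2305 or 2266, without the 1-week male spleen 2295, and without the female or the male spleen at 4 months 2327 or 2110. At 1 week the 2983 became 1518 or 1389 without the male or the female marrow and 1646 or 1383 without the male or the female spleen, the count at 4 weeks became 5312 without the female spleen, that at 2 months 4213 without the male spleen, and that at 4 months 3727 or 3777 without the female or the male spleen. With scan day as a term the 3510 became 2130, the 2983 became 980 and the 6557 became 2857. The 7971 at 4 weeks became 6765 and the 5865 at 4 months became 5556. At 1 week and at 2 months no spleen array shared a scan day with a marrow array. Within those ages tissue and scan day cannot be told apart.

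**Figure D3:**
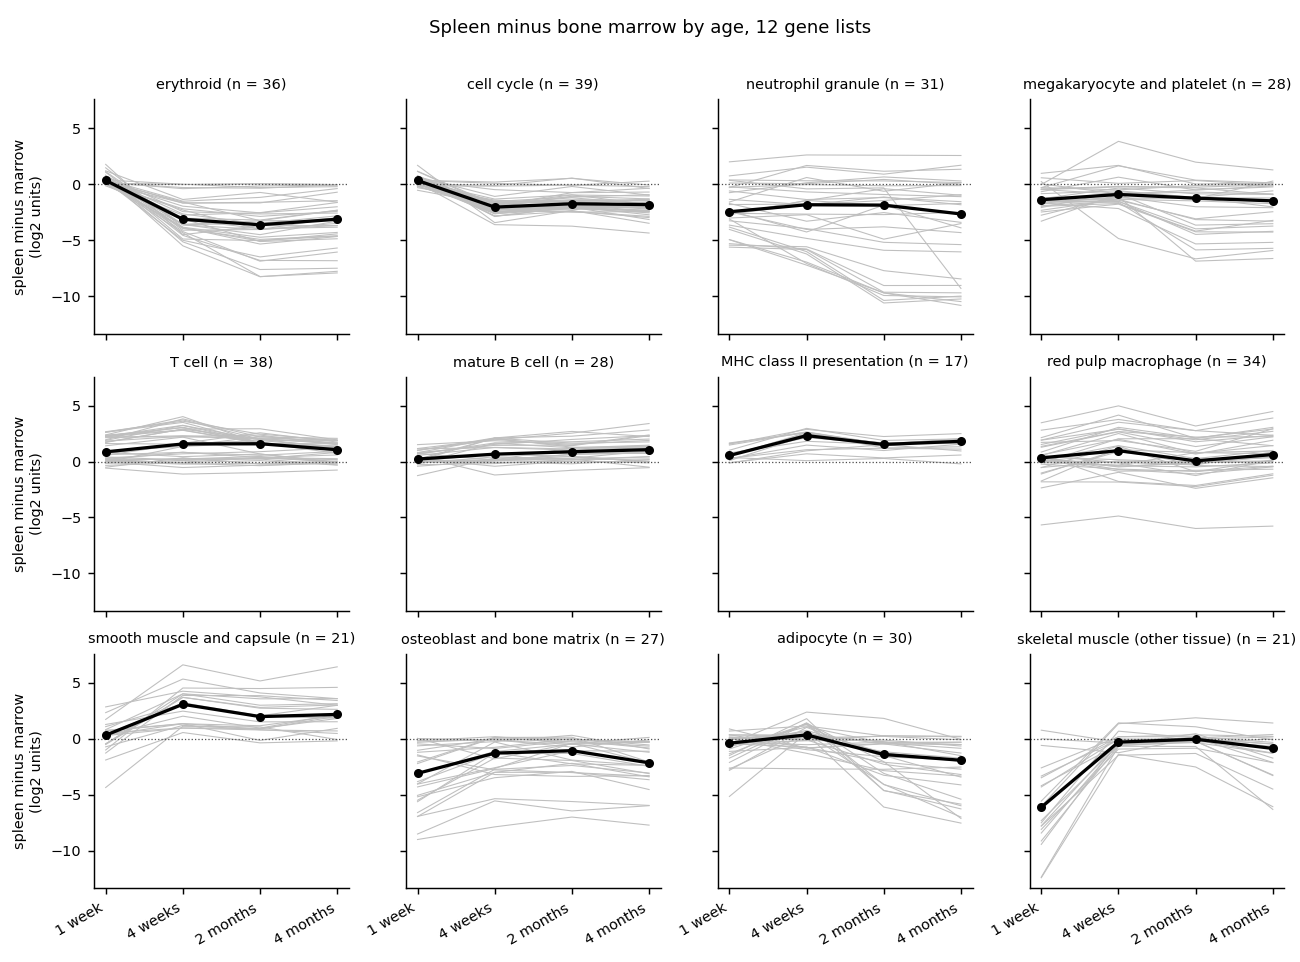
Spleen minus bone marrow difference in log2 units (y axis) at the 4 ages (x axis) for 12 gene lists; each grey line is a gene, the black line with points is the median of the list and the dotted line marks no difference. The erythroid median falls from 0.34 at 1 week to -3.14 at 4 weeks and the cell cycle median from 0.33 to -2.05, while the neutrophil granule median stays between -2.66 and -1.84.

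**Figure D4:**
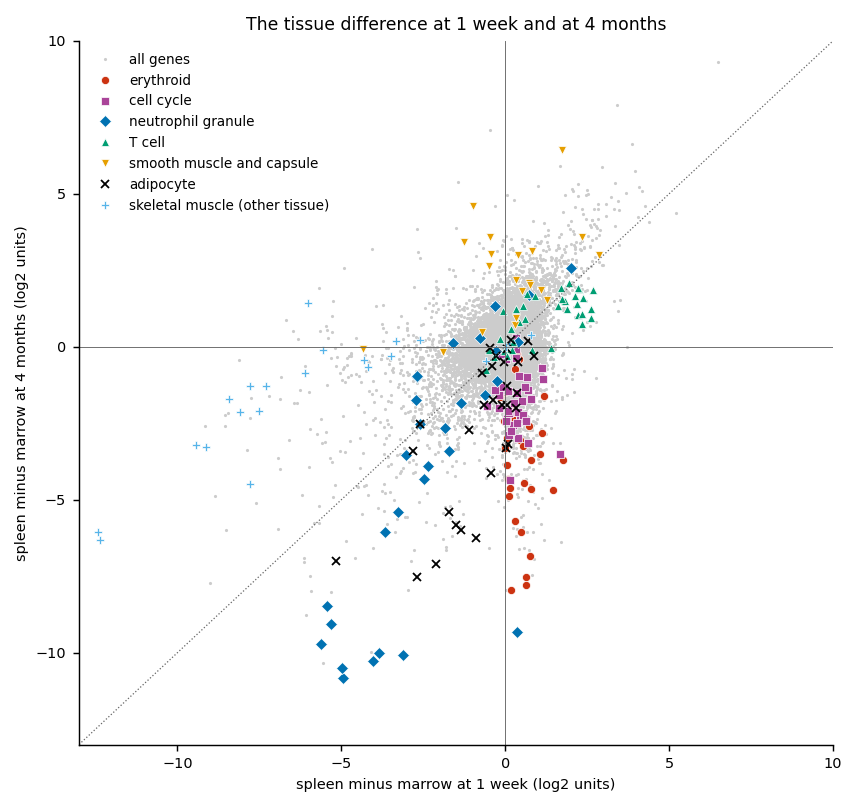
Spleen minus bone marrow difference in log2 units at 1 week (x axis) and at 4 months (y axis) for all genes (grey) and the members of 7 lists (coloured); the dotted diagonal marks an equal difference at both ages. Erythroid and cell cycle genes lie below the diagonal near 0 on the x axis, and 18 of 21 skeletal muscle genes were lower in spleen at 1 week and lie left of 0.

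Red-cell genes were about as bright in spleen as in marrow at 1 week and far dimmer in spleen later. KLF1, the master transcription factor of red-cell precursors, read 12.4 in the female and 12.5 in the male spleen at 1 week, 5.43 and 7.99 at 4 weeks, 3.15 and 4.27 at 2 months, and 3.28 and 3.25 at 4 months. In marrow it read 11.9 and 11.8, 12.3 and 12.2, 11.6 and 12.3, and 11.1 and 11.0. The tissues were within 1 log2 unit of each other at 1 week and did not overlap afterwards, and the 4-week male spleen was above the female. KLF1 fell at least 582-fold in spleen from 1 week to 4 months (adjusted p = 1.2e-06, limma), its marrow difference of -0.77 did not pass (adjusted p = 0.48), and its tissue difference went from 0.63 (adjusted p = 0.58) to at least 221-fold lower in spleen, a fitted change of -8.42 (adjusted p = 8.2e-05) whose size rests on spleen values near background. From 4 weeks to 4 months its change was -2.28 (adjusted p = 0.24).

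Membrane and iron genes of the red cell also fell in spleen. RHAG, a membrane channel of the Rh complex, read 10.1 and 10.3 in the female and male spleen at 1 week, 4.86 and 7.06 at 4 weeks, 3.07 and 3.53 at 2 months, and 3.28 and 3.61 at 4 months, while its 8 marrow values lay between 9.24 and 10.5. The tissues did not overlap from 4 weeks on, and its difference went from 0.77 at 1 week (adjusted p = 0.38, limma) by a change of -7.61 (adjusted p = 4.6e-05). TFRC, the receptor that takes up iron, was 3.41-fold higher in spleen at 1 week (adjusted p = 0.043) and 13.1-fold lower at 4 months. CA1, a carbonic anhydrase of mature red cells, differed from these in that it also rose in marrow, from 9.28 in the female and 10.4 in the male at 1 week to 13.6 and 13.7 at 4 months (14.1-fold, adjusted p = 0.0033, limma).

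Of 36 measured erythroid genes (43 listed), 4 were higher and 0 lower in spleen at 1 week (5.77% and 6.80% of all genes), with a median of 0.34. The 4 included TSPO2, EPB41 and TFRC. At 4 weeks 0 were higher and 31 lower (17.8% of all genes were higher and 15.8% lower at that age). At 2 months 31 were lower (12.7% of all genes) and at 4 months 29 (10.6%). The tissue difference fell for 28, as it did for 7.33% of all genes, with a median change of -3.62 against 0.0014 for all genes. In spleen 30 of the 36 fell between 1 and 4 weeks (13.2% of all genes) and 12 between 4 weeks and 2 months (3.03%). In marrow 2, TSPO2 and CA1, rose and 1, ICAM4, fell from 1 week to 4 months. Between 4 weeks and 4 months the difference changed for 0 of the 36, with a median of -0.17. The hemoglobin genes are a limit: HBM was saturated in both tissues at 1 week, and HBB and HBA2 did not differ past the threshold over the mean of the ages.

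**Figure D5:**
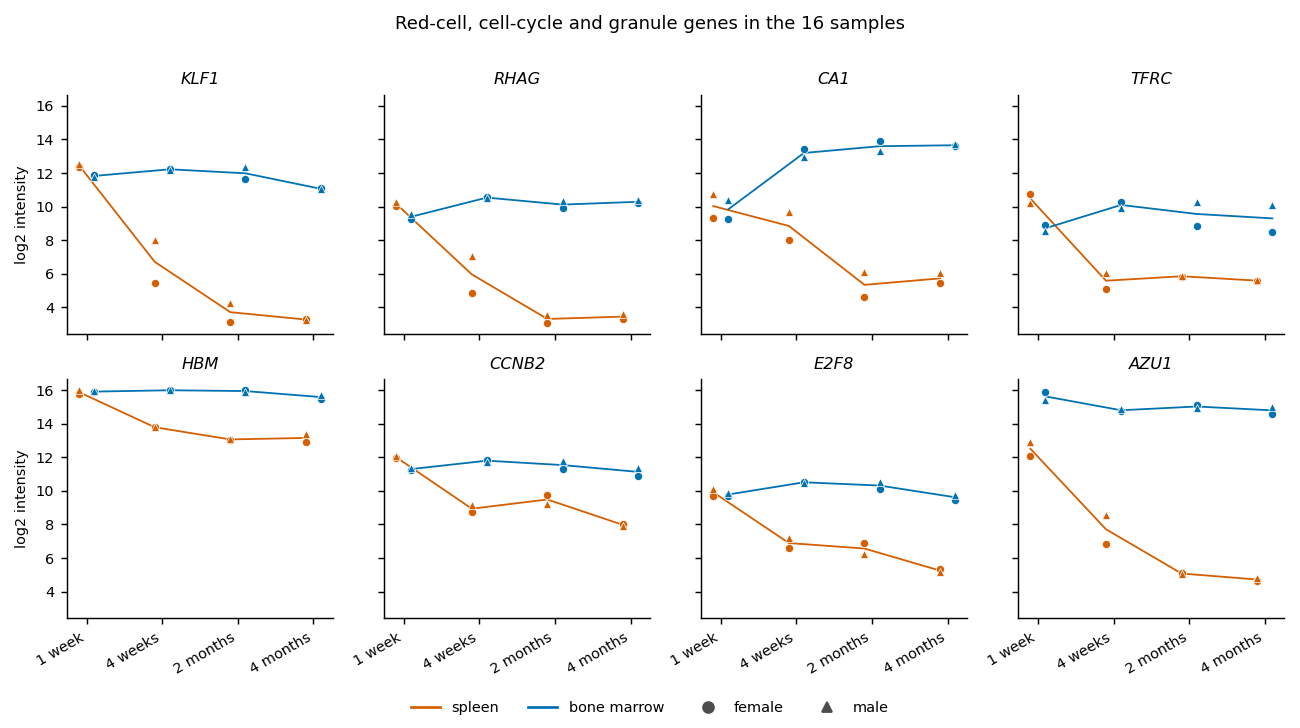
Log2 intensity (y axis) of 5 red-cell genes, 2 cell cycle genes and the granule protein gene AZU1 at the 4 ages (x axis) in spleen (orange) and bone marrow (blue); circles are females, triangles are males and lines join the group means. KLF1 in spleen goes from 12.4 and 12.5 at 1 week to 3.28 and 3.25 at 4 months while marrow stays at 11.0 or above.

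Cell cycle genes fell in spleen over the same step. E2F8, a transcription factor of dividing cells, read 9.70 in the female and 10.1 in the male spleen at 1 week, 6.61 and 7.18 at 4 weeks, 6.91 and 6.22 at 2 months, and 5.34 and 5.16 at 4 months, and between 9.46 and 10.5 in marrow. CENPF, a centromere protein of mitosis, was 3.21-fold higher in spleen at 1 week (adjusted p = 0.0058, limma) and 11.3-fold lower at 4 months (adjusted p = 1.2e-05). CCNB2, a mitotic cyclin, read 12.0 and 12.1 in spleen at 1 week and 8.05 and 7.90 at 4 months, and its change was -3.86 (adjusted p = 2.7e-05, limma). Of 39 measured cell cycle genes (50 listed), 5 were higher and 0 lower in spleen at 1 week (5.77% and 6.80% of all genes). The 5 were DLGAP5, AURKA, CDCA8, CDC6 and CENPF. At 4 months 33 were lower (10.6% of all genes). The difference fell for 34 of 39 (7.33% of all genes) with a median change of -2.18. From 4 weeks to 4 months it changed for 0 of 39, with a median of 0.11. In spleen 33 fell between 1 and 4 weeks and 34 from 1 week to 4 months (13.2% of all genes in either case). In marrow 7 fell and 1 rose from 1 week to 4 months (5.17% and 5.26% of all genes).

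Granule genes were already lower in spleen at 1 week and some fell further there. AZU1, azurocidin of primary granules, read 12.1 in the female and 12.9 in the male spleen at 1 week, 6.87 and 8.57 at 4 weeks, 5.11 and 5.05 at 2 months, and 4.64 and 4.80 at 4 months. In marrow its 8 values lay between 14.6 and 15.9, above every spleen value. It was 8.68-fold lower in spleen at 1 week (adjusted p = 0.00054, limma) and fell 222-fold in spleen by 4 months (adjusted p = 4.6e-07), with a change of the difference of -6.96 (adjusted p = 3.4e-05) from 1 week and of -2.99 (adjusted p = 0.045) from 4 weeks. At 4 weeks the male spleen was above the female for AZU1, for PR39 (7.13 against 5.06) and for NPG4 (11.1 against 8.42). Of the 31 granule genes, 20 were lower in spleen at 1 week and 22 at 4 months (6.80% and 10.6% of all genes). From 1 week to 4 months 13 fell and 8 rose in spleen (13.2% and 16.1% of all genes). The difference fell for 14 and rose for 4, CXCR2, NCF4, CHI3L1 and CYBB (7.33% and 7.46% of all genes). The probes of AZU1, NPG1 and NPG4 carry the mark for cross-hybridization.

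PMAP-36, a further cathelicidin of the pig, read between 3.61 and 4.27 in the 6 marrow samples up to 2 months and 13.2 in the female and 13.5 in the male at 4 months, and between 3.53 and 4.23 in all spleen samples. Only the marrow at 4 months was bright, in both sexes, a rise of at least 843-fold from 1 week (adjusted p = 7.0e-11, limma), and the fitted change of the tissue difference was -9.67 (adjusted p = 4.4e-09), a value that rests on signals near background in the other samples. PR39 read 13.5 and 13.2 in marrow at 1 week and 14.7 and 15.1 at 4 months, which did not pass (adjusted p = 0.066, limma).

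Many platelet genes fell in spleen between 4 weeks and 2 months. PF4, a chemokine of platelet granules, read 9.25 in the female and 9.49 in the male spleen at 1 week, 9.51 and 10.4 at 4 weeks, 4.29 and 4.16 at 2 months, and 3.92 and 3.44 at 4 months, while marrow read 12.1 and 12.2, 11.1 and 11.1, 10.8 and 11.4, and 10.1 and 10.6. Spleen was bright at 1 and 4 weeks and near background at 2 and 4 months, with no overlap between the 2 pairs of ages. PF4 fell at least 51.4-fold in spleen from 1 week to 4 months (adjusted p = 3.8e-07, limma) and its tissue difference changed by -3.87 (adjusted p = 0.00013). CLEC1B, a receptor on platelets, read 8.23 and 8.80 in spleen at 4 weeks and 3.85 and 4.22 at 2 months, and its tissue difference changed by -4.24 from 1 week to 4 months, while NFE2, a transcription factor of platelet and red-cell precursors, read 11.8 and 11.6 in spleen at 1 week and 6.32 and 8.27 at 4 weeks. Of the 28 measured genes, 14 fell in spleen between 4 weeks and 2 months (3.03% of all genes), with a median of -0.98. The tissue difference between 4 weeks and 4 months fell for 9, as it did for 0.818% of all genes. CLEC9A, a dendritic cell receptor gene, went from 7.25 and 8.12 in spleen at 4 weeks to 2.99 and 3.01 at 2 months. The probes of PF4 and CLEC9A carry the mark for cross-hybridization.

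The change of the smooth muscle contrast has to be read beside the muscle transcripts in the 1-week marrow. DES, desmin, which smooth and striated muscle share, read 11.4 in the female and 11.3 in the male spleen at 1 week, 13 and 12.9 at 4 weeks, 12.6 and 13.4 at 2 months, and 13.5 and 13.8 at 4 months. In marrow it read 12.4 and 12.3 at 1 week and then between 8.13 and 9.72. The difference went from -1 (adjusted p = 0.13, limma) to 4.60 (adjusted p = 5.6e-06), a change of 5.6 (adjusted p = 6.5e-05), with a rise of 2.33 in spleen and a fall of 3.27 in marrow. Of the 21 smooth muscle genes, the difference rose for 14 from 1 week to 4 months (7.46% of all genes). Over that time 12 rose in spleen (16.1%) and 7 fell in marrow (5.17%), and between 4 weeks and 4 months the difference changed for 0. In marrow 9 fell between 1 and 4 weeks (3.66% of all genes), when 18 of the 21 skeletal muscle genes fell too; the part of these transcripts in the change was not tested. Among the 20 genes with the greatest changes, PVALB (7.69), KY (7.62), ART3 (7.5), PYGM (7.44), PGAM2 (6.98), FBXO40 (6.75) and MYLPF (6.70) are genes of skeletal muscle and were highest in the 1-week marrow.

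Fat-cell genes became brighter in marrow at 2 and 4 months. FABP4, a fatty-acid carrier of adipocytes, read 11.3 in the female and 11.6 in the male marrow at 1 week, 10.7 and 10.3 at 4 weeks, 14.0 and 11.8 at 2 months, and 14.8 and 13.7 at 4 months. In spleen it read 7.87 and 9.54, 11.2 and 10.6, 7.24 and 6.35, and 7.04 and 6.43. The tissues overlapped at 4 weeks and were farthest apart at 4 months, and the female marrow was above the male at 2 and 4 months. Its difference went from 0.43 at 4 weeks (adjusted p = 0.68, limma) to -7.53 at 4 months (185-fold, adjusted p = 8.9e-06). Spleen was highest at 4 weeks, so this change holds a fall in spleen as well as a rise in marrow. ADIPOQ, the adipocyte hormone adiponectin, read 5.49 and 5.42 in marrow at 1 week, 4.24 and 3.92 at 4 weeks, 9.27 and 6.28 at 2 months, and 9.96 and 8.85 at 4 months, and was at least 63.1-fold lower in spleen at 4 months (adjusted p = 0.00013). Of 30 measured adipocyte genes (31 listed), 4 were lower in spleen at 1 week and 2 at 4 weeks, against 13 at 2 months and 22 of the 30 at 4 months. Of all genes 6.80%, 15.8%, 12.7% and 10.6% were lower at these ages. From 1 week to 4 months 14 rose in marrow and 0 fell (5.26% and 5.17% of all genes). The tissue difference fell for 10 (7.33% of all genes), with a median change of -1.47. Summed over the list the marrow intensity was 7737 to 12340 at 1 and 4 weeks, 60620 in the female and 14040 in the male at 2 months, and 82470 and 46330 at 4 months, against 5623 to 11810 in spleen. The highest spleen sums were those at 4 weeks, 11810 in the female and 8703 in the male. FABP4 has probes marked for cross-hybridization.

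Several other genes of the greatest changes belong to none of the lists. C2orf40, which encodes a secreted growth-restraining peptide, read 6.66 in the female and 8.13 in the male spleen at 1 week, 11.2 and 10.4 at 4 weeks, 11.8 and 12.0 at 2 months, and 11.2 and 10.9 at 4 months, while marrow went from 7.67 and 8.06 through 9.29 and 8.93 and 6.72 and 6.23 to 4.14 and 3.69. The tissues overlapped at 1 week and moved in opposite directions, with a change of 7.56 (standard error 0.59, adjusted p = 2.0e-05, limma). COCH, an extracellular matrix protein, rose from 5.04 and 4.77 to 8.34 and 8.25 in spleen and fell from 5.95 and 6.74 to 3.51 and 2.32 in marrow, a change of 6.82 (adjusted p = 1.2e-05), while its change from 4 weeks to 4 months was -0.33 (adjusted p = 0.80) and that of C2orf40 was 5.41 (adjusted p = 0.0014). CES1, a carboxylesterase, rose 40.3-fold in marrow, from 5.35 and 4.75 at 1 week to 10.6 and 10.2 at 4 months, and its change was -8.07 (adjusted p = 7.6e-05). ART5, SLC22A16, KAT6A and RASL10A had changes of -8.33, -8.28, -7.82 and -7.37; ART5 went from 13 and 13 in spleen at 1 week to 4.75 and 4.88 at 4 months, with marrow between 12.3 and 13.2. Within marrow MMP3, a matrix protease, was bright at 1 week only, with 8.62 in the female and 10 in the male, while spleen read between 4.21 and 9.51 (change 7.25).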

How the data were processed

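The authors deposited the scanner output of 1-colour custom arrays, made with Agilent Feature Extraction 11.5.1.1. The raw median intensity of each spot, not normalized between arrays, was used as deposited; the processed intensity, background-subtracted by that software, and the authors' log2 values, background-corrected and quantile-normalized by the RMA method, served as alternatives. Median intensities were corrected with normexp (offset 0) and quantile-normalized over all 80 arrays in limma 3.58.1 (R 4.3.3), log2-transformed and averaged per probe and gene, leaving out flagged spots. Of 10822 accessions on the array, 3022 were given a name through the RefSeq annotation of Sscrofa11.1. Cell means of the 8 groups were fitted in limma (8 residual degrees of freedom), with 2-sided contrasts for each age, the mean of ages, their change and the ages within each tissue. Of 23736 genes, 10 with a missing value were left out. Tested on simulated data in which 200 of 23726 genes were changed by 2 log2 units, the fit recovered 98.5% for the mean of ages, with 6.64% of its calls false, and 71% for the change of the contrast, with 3.4% false. The simulated noise was normal and independent between genes and arrays, and the change was placed in the 4-month spleen alone. These rates thus do not cover slide or scan-day effects, correlated genes or the larger number of genes called here.

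Named were the 12 genes most different in each direction without overlap between the tissues, the 10 most changed in each direction, and members of 28 gene lists (821 listed, 687 measured) with the greatest differences or changes or a defining role; genes named because a count was 5 or fewer were chosen after their values were seen. Members and lists were chosen with earlier results of these data known. Genes not well above background, or saturated, on every array of a group were given a bound. Precision is limited by the number of arrays. The 16 arrays lie on 9 slides scanned on 5 days. Taken over all ages, 7 slides and all 5 days hold both tissues. At 1 week and at 2 months, however, the tissues share no slide and no scan day. Alternatives were other intensities, background corrections, normalizations, filters, probe summaries, blocks, moderation, a fold threshold and leaving out samples; the authors' values, a scan-day term, the mean without 1 week and 4 weeks in place of 1 week were added after the data were seen. Some genes are not reported here.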

Additional observations from a re-analysis of the deposited data

Results flagged for a closer look

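The tissue difference at 4 months departed from that at 1 week for 3510 genes by the test of the change itself, which is what singled out the genes that follow. Upward changes of spleen relative to marrow were greatest for PVALB (7.69 log2 units), KY (7.62), C2orf40 (7.56), ART3 (7.5), PYGM (7.44), MMP3 (7.25), PGAM2 (6.98), COCH (6.82), FBXO40 (6.75) and MYLPF (6.70). The greatest downward changes included those of PMAP-36 (-9.67), KLF1 (-8.42), ART5 (-8.33), SLC22A16 (-8.28), CA1 (-8.12), CES1 (-8.07), KAT6A (-7.82), RHAG (-7.61) and RASL10A (-7.37). In samples outside the comparison, the spleen and marrow of the 2-year-old male, the adipocyte genes had a median difference of -3.25. These are fitted values, and where 1 tissue or age was near background their exact size and order are uncertain. No group holds 4 samples, so single samples were not checked for standing apart from their group.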

How the results depend on the processing

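Most of the counts of genes kept within 1.5 times of their value under the alternatives run; the exceptions follow, and their cause was not tested. With a 2-fold minimum added to the threshold the counts were 2621 for the mean of the ages, 1694, 4469, 3582 and 3269 for 1 week, 4 weeks, 2 months and 4 months, 3721 for age in spleen and 1259 for age in marrow. Males alone gave 1372 and females alone 1130 genes for the mean of the ages, from 4 samples a tissue. These fits had no age groups, so differences between ages count as spread in them. With scan day as a term the counts were 980 at 1 week, 2857 at 2 months, 2130 for the change of the contrast and 1079 for age in marrow, and the share of higher calls at 1 week was 27% in place of 45.9%; with the 2-fold minimum it was 33.2%. Taking 4 weeks in place of 1 week gave 234 for the change (17.1% of them upward, against 50.5%), 652 for spleen and 1405 for marrow. Leaving out each sample in turn gave 9551 to 11090 for the mean, 1383 to 3565 at 1 week, 5312 to 8696 at 4 weeks, 4213 to 7207 at 2 months, 3727 to 6548 at 4 months, 2110 to 4240 for the change, 4834 to 7657 in spleen and 927 to 3109 in marrow (2474 with all samples), where the lowest were those without the female (927) or the male (1075) marrow at 1 week and without the male marrow at 4 months (1479).

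With a replicate block that pairs the tissues by age and sex the counts were 10151, 2371, 7580, 6112 and 5472 for the mean and the 4 ages, 3001 for the change, 6974 in spleen and 2488 in marrow. The labels do not say that the tissues come from the same animal, and the male minus female differences of the 2 tissues correlated at 0.145, 0.0381, 0.0765 and 0.149 at the 4 ages, and over genes with a mean above 5 at 0.348, 0.163, 0.099 and 0.246. Of 201 results of named genes, 180 kept their call and direction in every setting, 21 lost the call in at least 1, and 0 reversed; the change of the contrast was lost most often for EGR3 (18 settings), ALPL (16), GATA3 (14), ZAP70 (12), ITGB3 and CELA2A (9 each) and PDCD1 (8). Within the slides that hold both tissues the median of the erythroid list had the sign of the mean in 6 of 7, and that of the T cell list in 6. The medians of the mature B cell and cell cycle lists had it in 5, and those of the neutrophil, smooth muscle and osteoblast lists in all 7. Most of these slides pair a spleen sample with a marrow sample of another age, so tissue and age are mixed in these signs. Genes near background and saturated hemoglobin genes have only bounds.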

Other observations

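Some progenitor and niche genes of the marrow also differed. HOXA10, a homeobox factor of the rear body and of blood progenitors, was at least 4.68-fold lower in spleen over the mean of the ages (adjusted p = 1.6e-07, limma), and of 21 measured stem and progenitor cell genes 12 were lower and 6 higher in spleen. EBF3, a factor of the stromal cells that keep blood stem cells, was between 7.55 and 9.15 in marrow and between 3.32 and 5.08 in spleen, 18.6-fold lower in spleen (adjusted p = 2.6e-09). The 20 measured marrow stroma and niche genes as a list had a median difference of 0.03, so EBF3 does not stand for the list. Over all genes 24.1% were higher and 20.0% lower. Of 31 measured endothelial genes 13 were higher and 6, a share near that of all genes, were lower; FCN2, a ficolin, was 11.3-fold lower in spleen. Of 18 measured dendritic cell genes 7 were higher and 6 lower, and IDO1, which degrades tryptophan, was 6.99-fold higher in spleen. Of 28 measured interferon response genes 12 were higher and 1 lower. MX1, an antiviral protein, read 13.4 in the female and 12.1 in the male spleen at 2 months and 12.6 and 11.7 in marrow, and its mean difference of 0.66 did not pass (adjusted p = 0.16, limma).

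One male was sampled at 2 years, on slides and a scan day of its own, so age and batch cannot be told apart and there are no replicates. In its marrow KLF1 read 2.30, AZU1 7.11, PMAP-36 3.29, ADIPOQ 12.8 and FABP4 16, and in its spleen KLF1 read 3.35 and TLX1 12.3. The median difference, spleen minus marrow, was 1.1 for erythroid, 0.20 for neutrophil granule, 0.19 for cell cycle, 2.28 for smooth muscle and -3.42 for osteoblast genes, against -0.0095 for all genes.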
